A study of Mus musculus with 3 samples.

Results

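The unfolded protein response and the integrated stress response were followed through 10 genes across the 3 libraries of the series. They are Ern1, Atf6, Xbp1, Hspa5, Hsp90b1, Dnajb9, Atf4, Ddit3, Trib3 and Asns, chosen by symbol, and all 10 were found among the 21983 genes of the table. RNA came from intestine of wild-type mouse pups, 1 library per group, collected 96 h after the start of the model. The PCI34051+NEC group received PCI34051, an inhibitor of the lysine deacetylase HDAC8, by mouth at 10 mg/kg per day for 5 days, starting the day before the model. The NEC group received PBS in its place. Both groups went through a model of necrotizing enterocolitis (NEC), a disease of the newborn bowel. In this model, 40 µl of 33% formula was given by gavage each 4 h, with 100 s in 99.9% nitrogen and 10 min at 4 °C every 12 h. Control pups stayed with the dam, received PBS and had neither hypoxia nor cold, so feeding, hypoxia and cold cannot be told apart from each other or from disease in any contrast with control. Age, sex and the number of pups behind each library are not stated.

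The endoplasmic reticulum (ER) folds secreted and membrane proteins, and 3 membrane sensors, IRE1 (Ern1), ATF6 and PERK (Eif2ak3), respond when unfolded proteins accumulate there. IRE1 removes a short intron from Xbp1 RNA, ATF6 is cut by proteases of the Golgi to release a transcription factor, and PERK phosphorylates the translation factor eIF2α. Other kinases phosphorylate the same factor on amino acid shortage, viral RNA or haem deficiency, and together these routes form the integrated stress response, in which ATF4 is translated and switches on genes of amino acid supply and cell death. Secretory cells of the gut, such as goblet and Paneth cells, are known to depend on this machinery. Counts per gene show RNA abundance alone: neither Xbp1 splicing, ATF6 cleavage, eIF2α phosphorylation nor ATF4 translation can be read from them.

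The promoters of 3 of these genes are shown because they hold the classical response elements. In the table of RefSeq promoters (GRCm38.p6, the same build as mm10), 9 of the 10 genes had an entry. The 250 bases upstream of each RefSeq start were searched on both strands for exact matches only, so near matches were not counted. For Hspa5, Hsp90b1 and Asns this start lies inside the gene span that GENCODE M21 gives below, so the matches in Hspa5 and Asns fall within that span and those in Hsp90b1 do not. The ER stress element, CCAAT and CCACG with 9 bases between them, is the site through which ATF6 acts, and the amino acid response element, TGATGNAA, is a site of ATF4. Capitals mark the matches, which in Hspa5 lay 65 to 47 bases before the start, in Hsp90b1 212 to 194 and, on the opposite strand, 107 to 89 bases before it, and in Asns 23 to 16 bases before it. The sequences run 5′ to 3′ on the strand of the gene, from chr2:34771840-34772089 (plus strand), chr10:86705445-86705694 (minus strand) and chr6:7693210-7693459 (minus strand).
Hspa5: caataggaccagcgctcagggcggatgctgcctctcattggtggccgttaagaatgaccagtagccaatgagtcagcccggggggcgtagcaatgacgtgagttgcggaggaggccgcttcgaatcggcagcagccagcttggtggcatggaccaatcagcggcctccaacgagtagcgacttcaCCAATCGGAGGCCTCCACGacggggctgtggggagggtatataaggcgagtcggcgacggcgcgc
Hsp90b1: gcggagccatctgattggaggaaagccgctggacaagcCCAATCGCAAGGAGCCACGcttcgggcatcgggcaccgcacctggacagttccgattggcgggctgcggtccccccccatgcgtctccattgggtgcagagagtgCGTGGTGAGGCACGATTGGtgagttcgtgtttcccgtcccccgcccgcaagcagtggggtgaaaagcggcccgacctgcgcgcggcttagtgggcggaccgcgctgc
Asns: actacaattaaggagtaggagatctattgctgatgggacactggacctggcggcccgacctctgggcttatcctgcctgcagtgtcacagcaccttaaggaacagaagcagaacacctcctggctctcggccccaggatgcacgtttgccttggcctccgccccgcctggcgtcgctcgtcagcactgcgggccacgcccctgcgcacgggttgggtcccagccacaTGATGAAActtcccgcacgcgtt

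Of 32851 promoter windows in the table, 0.113% held an ER stress element and 3.45% an amino acid response element. The shorter UPR element TGACGTGG was in 0.563%, and the second form of the ER stress element, ATTGG and CCACG with 1 base between them, in 0.0304%, and neither was found in the 9 windows. Xbp1, Atf4, Ddit3, Ern1, Dnajb9 and Trib3 had none of these letters in the window searched. The Dnajb9 window (chr12:44210069-44210318) lies wholly inside the gene span given below, so no base upstream of that span was searched. The Ern1 and Ddit3 windows reach into their gene spans in part. Atf6 is named only.

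All 10 are protein-coding genes, placed here on mm10 by the GENCODE M21 annotation. Ern1 (chr11:106394650-106487852, minus strand) and Xbp1 (chr11:5520659-5525893, plus strand) share chromosome 11, and Atf6 lies on chromosome 1 (chr1:170704674-170867771, minus strand). Of the chaperone genes, Hspa5 is at chr2:34771970-34777547 (plus strand), Hsp90b1 at chr10:86690209-86705509 (minus strand) and Dnajb9 at chr12:44205559-44210326 (minus strand). Of the ATF4 branch, Atf4 is at chr15:80255184-80257541 and Ddit3 at chr10:127290774-127296288, both on the plus strand, and Trib3 at chr2:152337422-152344032 and Asns at chr6:7675169-7693254, both on the minus strand.

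The libraries held 16497580 (PCI34051+NEC), 10650638 (NEC) and 15076413 (control) counts, and the 10 genes together took 0.117%, 0.0760% and 0.135% of them. There were no replicates, so differences have neither a replicate check nor a p-value, and the values describe these 3 libraries. The 95% intervals reflect counting error alone. Levels are given as CPM, read counts scaled to library size with TMM normalisation. The NEC library stood apart: mitochondrial genome transcripts took 3.73% of all counts with PCI34051+NEC, 32.4% with NEC and 4.88% in control. The part of this in the differences below was not tested. Of 10 enterocyte and epithelial marker genes, none was at 0 in any library.

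Among the sensors, Atf6 differed more than Ern1. Atf6 had 63.7 CPM (969 counts) with PCI34051+NEC, 18.3 CPM (200 counts) in the NEC library and 40.0 CPM (635 counts) in control. It was thus lowest in the NEC and highest in the PCI34051+NEC library. NEC was 2.19-fold lower than control (interval 1.86 to 2.58), and PCI34051+NEC was 3.49-fold higher than NEC (2.99 to 4.08) and 1.59-fold higher than control (1.44 to 1.76). Ern1 was at 22.6 CPM (344 counts), 15.2 CPM (166 counts) and 19.4 CPM (309 counts) in the PCI34051+NEC, NEC and control libraries. Its ratio was 0.780 for NEC over control (0.642 to 0.945) and 1.49 for PCI34051+NEC over NEC (1.24 to 1.80), and the interval for PCI34051+NEC over control, 0.994 to 1.36, included 1. Xbp1, the transcription factor made from the RNA that IRE1 splices, was at 117 CPM (1779 counts), 57.1 CPM (625 counts) and 101 CPM (1600 counts) in the same order. NEC was 1.76-fold lower than control (1.61 to 1.94), and PCI34051+NEC was 2.05-fold higher than NEC (1.87 to 2.25) and 1.16-fold higher than control (1.08 to 1.24).

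The ER chaperones showed the largest differences of the 10 genes between NEC and control. Hspa5, which encodes BiP, the Hsp70 of the ER lumen that also holds the sensors inactive, had 277 CPM (4223 counts) in the PCI34051+NEC, 58.5 CPM (641 counts) in the NEC and 343 CPM (5454 counts) in the control library. The NEC value was 5.86-fold lower than control (5.40 to 6.37), and PCI34051+NEC was 4.74-fold higher than NEC (4.36 to 5.16) and 1.24-fold lower than control (1.19 to 1.29). Only 2.43% of measured genes had a lower fold of NEC over control. Hsp90b1, the ER member of the Hsp90 family, was at 349 CPM (5317 counts), 151 CPM (1648 counts) and 446 CPM (7091 counts) in the PCI34051+NEC, NEC and control libraries. It was 2.96-fold lower in NEC than in control (2.81 to 3.13) and 2.32-fold higher in PCI34051+NEC than in NEC (2.20 to 2.45), and 1.28-fold lower in PCI34051+NEC than in control (1.23 to 1.32). Its exons overlap those of other annotated genes, so some of its counts may be shared. Dnajb9, a co-chaperone of BiP and a known XBP1 target, was at 114 CPM (1739 counts), 18.1 CPM (198 counts) and 69.6 CPM (1106 counts). Unlike Hspa5 and Hsp90b1, it was highest with PCI34051: 6.32-fold above NEC (5.45 to 7.36) and 1.64-fold above control (1.52 to 1.77), while NEC was 3.85-fold below control (3.31 to 4.50).

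Atf4 went the other way from the chaperones. Its level was 228 CPM (3474 counts) in the PCI34051+NEC, 346 CPM (3789 counts) in the NEC and 179 CPM (2837 counts) in the control library, so that NEC was 1.94-fold higher than control (1.85 to 2.04) and PCI34051+NEC was 1.52-fold lower than NEC (1.45 to 1.59) and 1.28-fold higher than control (1.22 to 1.34). Ddit3, which encodes the death-associated factor CHOP, differed little, at 53.5, 57.5 and 60.7 CPM (814, 630 and 964 counts) in the PCI34051+NEC, NEC and control libraries. Its intervals for NEC over control (0.857 to 1.05) and PCI34051+NEC over NEC (0.837 to 1.03) included 1, and its ratio of PCI34051+NEC over control was 0.882 (0.802 to 0.969). The annotation holds 2 gene models with the symbol Ddit3, and its exons overlap Mars on the opposite strand over 68 bp, so its counts are less certain.

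Trib3 and Asns, both known ATF4 targets, did not share an order. Trib3, a pseudokinase that restrains ATF4 and AKT, had 20.0 CPM (304 counts) in the PCI34051+NEC, 10.7 CPM (117 counts) in the NEC and 6.23 CPM (99 counts) in the control library. It was the single gene of the 10 that was at least 2-fold apart between PCI34051+NEC and control, at 3.21-fold higher (2.55 to 4.06). It was also 1.72-fold higher in NEC than in control (1.30 to 2.27) and 1.87-fold higher in PCI34051+NEC than in NEC (1.51 to 2.33). Asns, asparagine synthetase, was at 23.9 CPM (364 counts), 7.58 CPM (83 counts) and 16.9 CPM (269 counts) in the PCI34051+NEC, NEC and control libraries. The NEC value was 2.23-fold lower than control (1.74 to 2.89), although Atf4 was higher there, and PCI34051+NEC was 3.15-fold higher than NEC (2.48 to 4.05) and 1.41-fold higher than control (1.20 to 1.66).

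**Figure D1:**
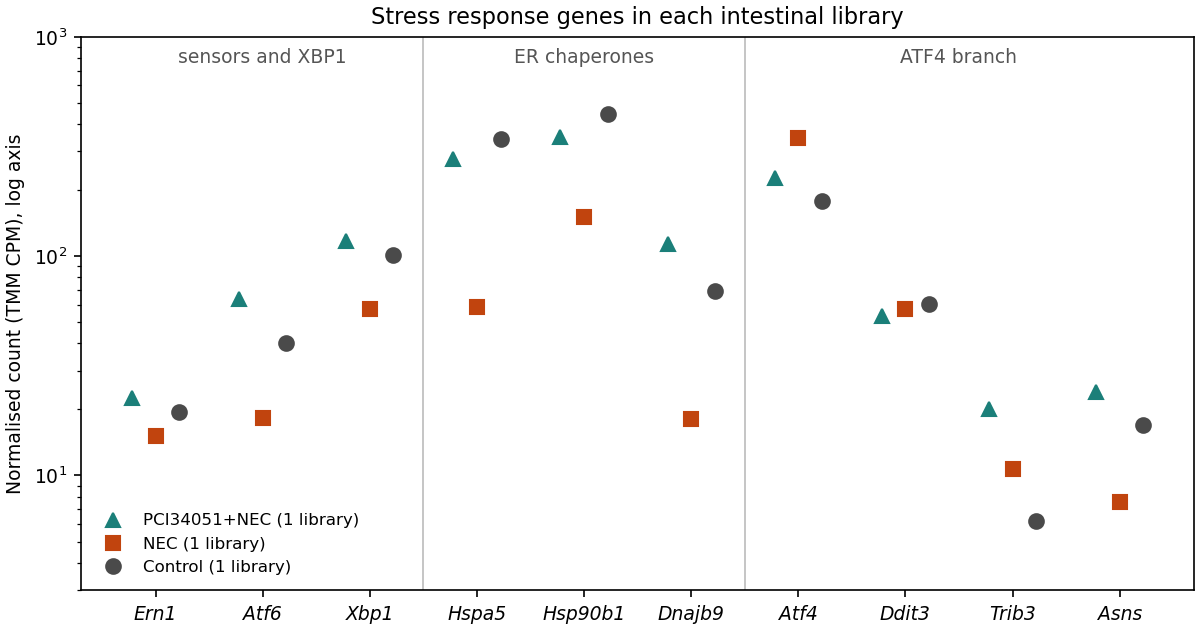
Normalised counts (CPM, log axis) of the 10 genes in the PCI34051+NEC, NEC and control libraries, each point 1 library. The NEC point is the lowest for Ern1, Atf6, Xbp1, Hspa5, Hsp90b1, Dnajb9 and Asns and the highest for Atf4 (346 CPM), while Ddit3 stays between 53.5 and 60.7 CPM.

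Counted at a 2-fold difference on the log2(CPM + 1) scale, 5 of the 10 genes (Hspa5, Hsp90b1, Dnajb9, Atf6 and Asns) were lower in NEC than in control and 0 were higher. Over all 14627 measured genes, those at 1 CPM or more in either library, 22.9% were lower and 24.2% higher. The median log2 fold of the 10 was -0.94, beside -0.03 over all measured genes. With a pseudocount of 4 CPM, or counting only intervals wholly beyond 2-fold, 3 were lower, Hspa5, Hsp90b1 and Dnajb9. Atf6 (-1.09) and Asns (-1.06) were close to the threshold.

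Between PCI34051+NEC and NEC, 6 genes were at least 2-fold higher, the 5 above and Xbp1 (1.02 on the log2 scale, at the threshold), and 0 were lower. After correction for GC content and length, Hsp90b1 was no longer among the 6 (0.80 in place of 1.21) and Trib3 was (1.22 in place of 0.84). The background was 25.0% higher and 25.6% lower of 14410 measured genes, and the median of the 10 was 1.12, beside 0.01 over all genes. This comparison shares the NEC library with the one above, so a low or high value there enters both. Between PCI34051+NEC and control, 1 gene (Trib3) was at least 2-fold higher and 0 were lower, with a background of 6.55% higher and 6.55% lower of 13652 genes. The median of the 10 was 0.28. At a 1.5-fold threshold Atf6 and Dnajb9 joined Trib3, giving 3.

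**Figure D2:**
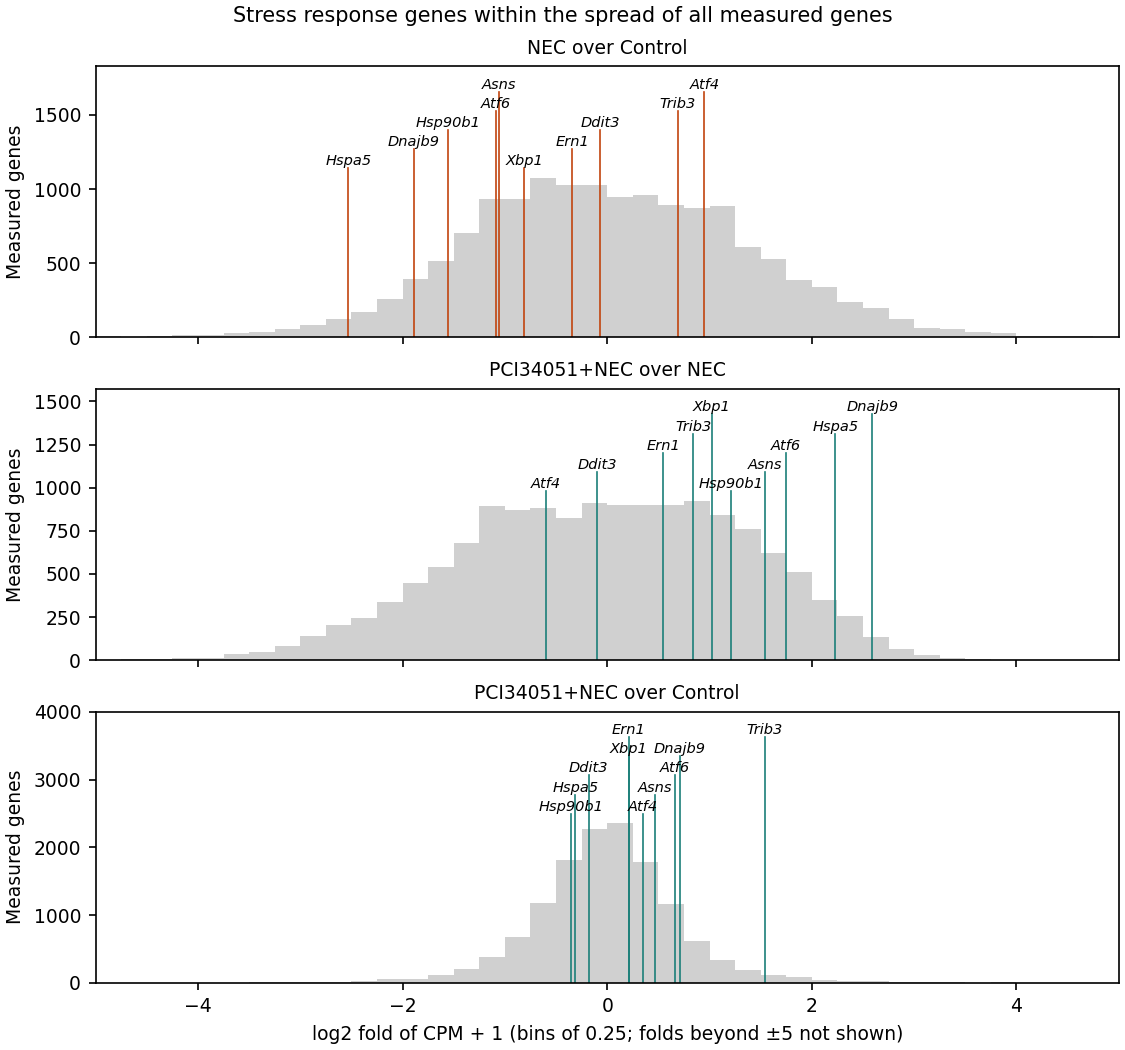
Histograms of the log2 fold of all measured genes in each comparison, with the 10 genes marked by lines. For NEC over control the lines run from -2.53 (Hspa5) to 0.95 (Atf4), for PCI34051+NEC over NEC from -0.60 (Atf4) to 2.59 (Dnajb9), and for PCI34051+NEC over control 9 of the 10 lie within 1 of zero.

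Levels of different genes were compared per kilobase of exon. Per kilobase, Atf4 ranked 1 in the PCI34051+NEC and NEC libraries (132 and 201 CPM per kb) and 2 in control (103 CPM per kb), where Hsp90b1 was highest at 158 CPM per kb. Hspa5 ranked 3 in the PCI34051+NEC library (73.9 CPM per kb), 5 in the NEC library (15.6 CPM per kb) and 3 in control (91.4 CPM per kb). In the NEC library it stood below Ddit3 (64.6 CPM per kb), Hsp90b1 (53.3 CPM per kb) and Xbp1 (23.9 CPM per kb). Ern1 was the lowest per kilobase in every library, at 2.77, 1.86 and 2.38 CPM per kb in PCI34051+NEC, NEC and control. The other 4 genes, Dnajb9, Asns, Trib3 and Atf6, lay between Ern1 and Hspa5 in every library.

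Ratios of counts within a library are free of scaling between libraries. For each 100 counts of Atf4 there were 122 counts of Hspa5 in the PCI34051+NEC library (116 to 127), 16.9 in the NEC library (15.5 to 18.4) and 192 in control (184 to 201). Asns had 10.5 counts per 100 of Atf4 with PCI34051 (9.38 to 11.7), 2.19 in NEC (1.74 to 2.72) and 9.48 in control (8.34 to 10.7). The Trib3 to Atf4 ratio separated the libraries differently, at 8.75 (7.76 to 9.84), 3.09 (2.55 to 3.71) and 3.49 (2.83 to 4.26) per 100, with the intervals of NEC and control overlapping. Within the chaperones, Dnajb9 had 41.2 counts per 100 of Hspa5 in the PCI34051+NEC library (38.9 to 43.6), 30.9 in NEC (26.2 to 36.3) and 20.3 in control (19.0 to 21.6).

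Cell type markers also differed between the libraries, and not all in the same direction. In bulk tissue fewer cells of a type and less RNA per cell cannot be told apart. The summed level of 10 enterocyte and epithelial genes was 106525 CPM in the PCI34051+NEC, 20075 CPM in the NEC and 43063 CPM in the control library. Apoa4 (58772, 9794 and 20142 CPM) and Apoa1 (31024, 6947 and 13701 CPM) weighed most in these sums. In PCI34051+NEC over control 6 of the 10 were at least 2-fold higher and 4 within 2-fold. The 4 were Epcam (ratio 1.02), Vil1 (0.968), Cdh1 (1.27) and Alpi (1.31). In NEC against control 6 of the 10 were at least 2-fold lower. Smooth muscle genes ran opposite, at 1481, 11506 and 1551 CPM over 8 genes, 7 of them at least 2-fold higher in NEC than in control, and so did the 6 fibroblast genes, at 719, 2664 and 759.5 CPM. Of the secretory cells, 7 Paneth genes summed to 16.9, 94.5 and 7.74 CPM and 8 goblet genes to 440.5, 304 and 930.1 CPM, with Muc2 at 0 in all 3 libraries. Whether the 0 of Muc2 reflects the tissue or the counting was not tested. Fcgbp weighed most in the difference of the goblet sums between NEC and control, being 8.27-fold lower in NEC (7.71 to 8.87). Of the 7 measured goblet genes, 4 were above and 3 below control in NEC by 2-fold or more, and the median log2 fold was 1.61. Of the 4 B and plasma cell genes in the table, Jchain was at 0 throughout and Mzb1 at 0 in the PCI34051+NEC and NEC libraries, and the list summed to 0.723, 0.913 and 27.7 CPM. In the same order, T cell genes summed to 1.58, 1.92 and 15.0 CPM, macrophage genes to 194, 91.3 and 478 CPM, and endothelial genes to 89.7, 108 and 91.3 CPM. Neuron and glia genes summed to 199, 355 and 253 CPM, pancreatic acinar genes to 6.18, 3.65 and 8.31 CPM, and liver genes to 209.9, 186 and 366 CPM. The liver sum was carried by Ttr (209, 57.6 and 353 CPM), whereas the other 4 liver genes were at least 2-fold higher in NEC than in control and lower with PCI34051 against NEC, among them Alb (0.394, 100.4 and 9.31 CPM). The part of cell composition in the differences above was not tested.

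The 10 genes were also set beside each of the 10 epithelial genes, a comparison added after the values were seen. Each count below only ranks a fold given above among the 10 marker folds, so it is no measure of epithelial content. In NEC over control the epithelial ratios ran from 0.148 (Epcam, an adhesion gene) to 1.96 (Fabp2, a fatty acid carrier), with a median log2 fold of -1.04, so the result depends on the gene taken. Counts of Hspa5 per count of the epithelial gene were lower in NEC than in control against 9 of the 10, and higher against Epcam alone. Dnajb9 was lower in NEC against 8 of the 10, Hsp90b1 against 7, Atf6 and Asns against 6 each, Xbp1 against 3, Ern1 against 2, and Atf4, Ddit3 and Trib3 against 1 each. With PCI34051 against NEC, where the epithelial ratios reached 9.61 (Lct, lactase), Dnajb9 was higher against 7 of the 10, Hspa5 against 5, Atf6 against 2, Hsp90b1, Xbp1 and Asns against 1 each, and Ern1, Atf4, Ddit3 and Trib3 against 0.

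**Figure D3:**
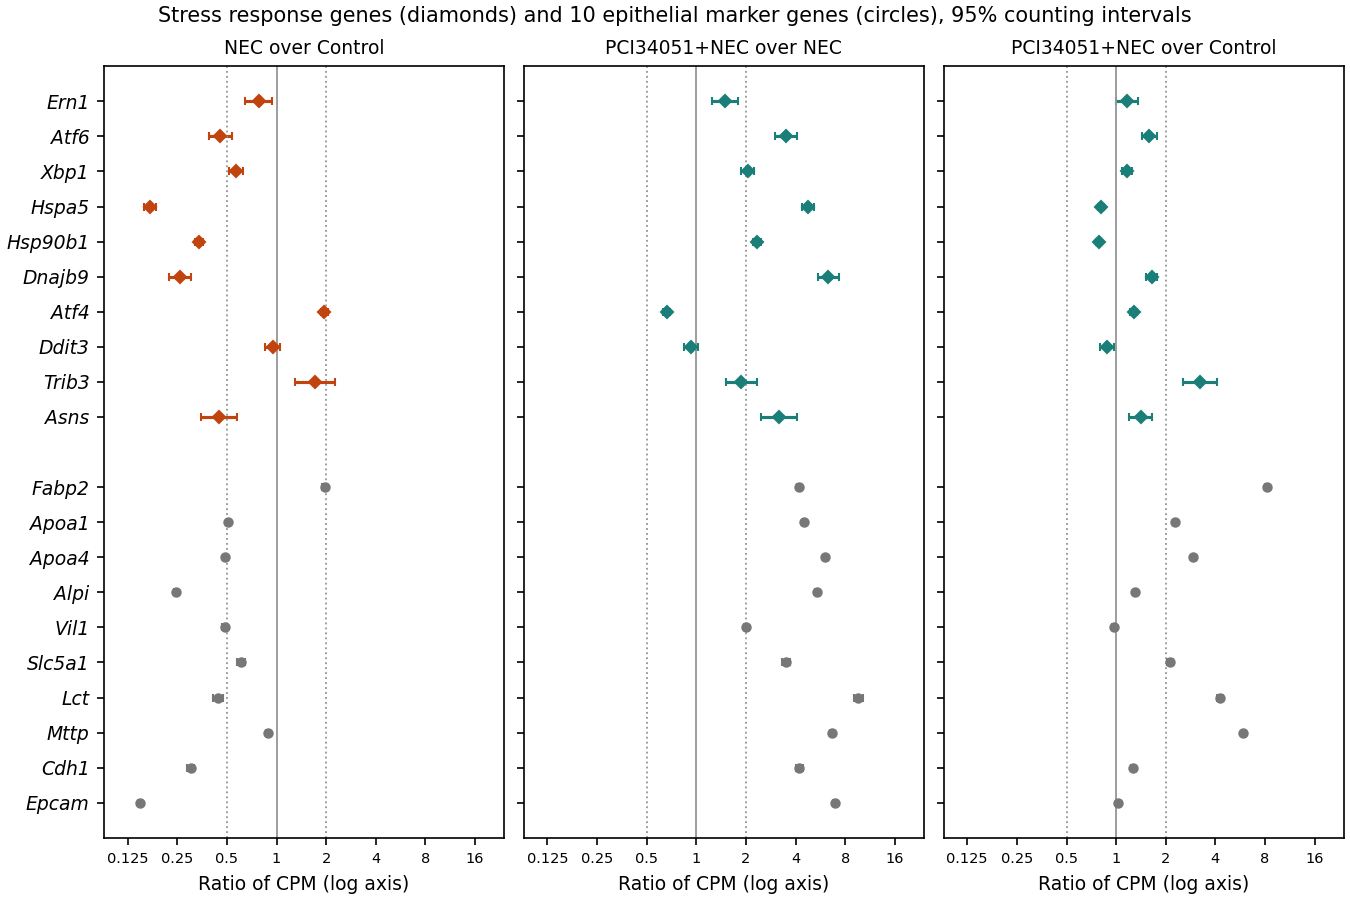
Ratio of CPM (log axis) in the 3 comparisons for the 10 stress response genes (diamonds) and the 10 epithelial marker genes (circles), with 95% counting intervals and dotted lines at 0.5 and 2. For NEC over control Hspa5 (0.171) lies below 9 of the epithelial genes and above Epcam (0.148). For PCI34051+NEC over NEC Dnajb9 (6.32) lies above 7 of them, and Trib3 alone of the 10 stress response genes lies beyond 2 for PCI34051+NEC over control (3.21).

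In the wider ER folding machinery, chaperone and disulfide genes were lower or within 2-fold in NEC against control, and none was 2-fold higher. Some genes stand in more than 1 of the lists below, and every count in NEC against control reads against 22.9% lower and 24.2% higher over all measured genes. Of 16 genes of the ER Hsp70 and Hsp90 system, the 3 chaperones above included, 8 were lower by 2-fold or more and 0 higher, the median log2 fold being -1.02. Dnajb11, a co-chaperone of BiP, was at 92.7, 35.1 and 122 CPM in the PCI34051+NEC, NEC and control libraries, and Dnajc3, an inhibitor of eIF2α kinases, at 106, 48.2 and 76.0 CPM. Sec63, which recruits BiP to the translocon, was at 88.6, 79.9 and 68.8 CPM. Among the 18 genes for the calnexin cycle and disulfide formation, 9 were lower in NEC by 2-fold or more and 0 higher (median -0.96). The most abundant, the disulfide isomerase P4hb, was at 5318, 938 and 2283 CPM, and the lectin chaperone Calr at 596, 218 and 791 CPM. Pdia3, which works with calreticulin, was at 552, 162 and 485 CPM.

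Entry into and disposal from the ER were described in the same way. Of 22 genes of the translocon, signal peptidase and oligosaccharyltransferase, 14 were lower in NEC than in control by 2-fold or more and 0 higher (median -1.12). Rpn2, an oligosaccharyltransferase subunit, was at 308, 102 and 263 CPM in PCI34051+NEC, NEC and control, while the catalytic subunit Stt3b (228, 139 and 188 CPM) and the channel subunit Sec61a1 (168, 137 and 173 CPM) differed by less than 2-fold. Of 23 genes of ER-associated degradation, 8 were lower and 1 higher, with a median of -0.59. The exception was Aup1, at 148, 491 and 159.9 CPM, which recruits ubiquitin enzymes to the ER. Herpud1, a scaffold of the degradation complex induced by ER stress, was at 504, 137 and 159.8 CPM.

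With PCI34051 against NEC, where 25.0% of all measured genes were higher and 25.6% lower, 9 of the 16 Hsp70 and Hsp90 system genes were at least 2-fold higher, 7 of the 18 calnexin and disulfide genes, 12 of the 23 degradation genes and 12 of 21 measured translocon genes. None was lower apart from Aup1 of the degradation list, and the medians were 1.16, 0.92, 1.10 and 1.07. With PCI34051 against control the same lists counted 0, 1 (P4hb, 2.33-fold, 2.30 to 2.36), 1 (Herpud1, 3.15-fold, 3.01 to 3.30) and 0 genes above 2-fold, and 0 below, and had medians of -0.20, -0.07, 0.21 and -0.04. In that comparison the background was 6.55% each way.

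Of 12 sensor and protease genes, 4 (Atf6, Eif2ak3, Mbtps2 and Rtcb) were at least 2-fold lower in NEC than in control and 1 (Creb3l1) was higher, beside 22.9% lower and 24.2% higher over all genes, with a median of -0.45. Eif2ak3, which encodes PERK, was at 116, 26.9 and 62.5 CPM in the PCI34051+NEC, NEC and control libraries, an order it shared with Atf6. Of the proteases that cut ATF6, Mbtps2 was at 25.9, 8.31 and 22.1 CPM but Mbtps1 at 98.6, 118 and 82.1 CPM. Rtcb, the ligase that joins the Xbp1 exons, was at 84.5, 39.1 and 108 CPM. Atf6b, the relative of Atf6, was at 23.6, 37.7 and 38.8 CPM, and Ern2, the IRE1 of mucus-secreting cells, at 1.97, 1.00 and 2.33 CPM. Creb3l3, a related factor of liver and gut, was the single gene of this list at least 2-fold higher in PCI34051+NEC than in control, at 988 CPM against 493 CPM, a ratio at the threshold (1.95 to 2.06), with 337 CPM in NEC. Over all genes 6.55% were higher with PCI34051 against control. With PCI34051 against NEC 5 of the 12 were higher and 1 lower, with a median of 0.68, beside 25.0% and 25.6% of all genes.

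For the core of the integrated stress response the counts lay close to the background. Of 12 genes for eIF2α kinases, its phosphatase and the eIF2B subunits, 3 were at least 2-fold higher in NEC than in control and 3 lower (median -0.45), where 24.2% and 22.9% of all genes were. The regulatory subunits of the phosphatase differed from each other. Ppp1r15a, the stress-induced subunit also called GADD34, was at 34.8, 61.1 and 16.3 CPM in PCI34051+NEC, NEC and control. The constitutive subunit Ppp1r15b was at 223, 51.4 and 138 CPM. Eif2ak1, the haem-regulated kinase, was at 103, 50.6 and 76.1 CPM. With PCI34051 against NEC 4 genes were higher and 3 lower (median 0.18), beside 25.0% and 25.6% of all genes. Against control 1 gene, Ppp1r15a, was higher (2.13-fold, 1.83 to 2.48), beside 6.55% of all genes, and the median was 0.24.

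Lists of transcription factors and effectors downstream of ATF4 were short. In NEC against control their counts read against 24.2% higher and 22.9% lower over all measured genes. Of 8 transcription factors and their regulators, Atf4, Ddit3 and Trib3 among them, 1 (Nupr1) was at least 2-fold higher in NEC than in control and 3 (Atf3, Atf5 and Cebpg) were lower, with a median of 0.31. Nupr1, a stress-induced chromatin factor, was at 10.6, 86.9 and 27.4 CPM in the PCI34051+NEC, NEC and control libraries. Atf3, a repressor commonly induced with CHOP, was at 34.6, 8.40 and 30.5 CPM, Cebpg, a partner of ATF4, at 133, 41.1 and 93.9 CPM, and Cebpb at 136, 159 and 87.0 CPM. Of 11 measured effectors, 3 were higher and 1 lower in NEC than in control (median 0.07). With PCI34051 against NEC 5 were higher and 0 lower (0.79), beside 25.0% and 25.6% of all genes. With PCI34051 against control 5 were higher and 1 lower (0.82), where 6.55% of all genes were higher and 6.55% lower. Ddit4, an inhibitor of mTORC1, was at 56.6, 50.4 and 9.88 CPM, and Eif4ebp1 at 84.2, 55.6 and 52.9 CPM. Sesn2, an amino acid sensor, was at 47.0, 11.6 and 116 CPM, and Chac1, a glutathione-degrading ATF4 target, at 9.39, 5.02 and 4.91 CPM.

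Among amino acid genes under ATF4, transport and synthesis gave different counts. Of 8 transporters, 4 were at least 2-fold higher in NEC than in control and 1 lower, with a median of 1.07. Of 10 measured synthesis genes, Asns included, 1 (Shmt2) was higher and 2 (Asns and Aldh18a1) were lower, with a median of -0.76. Over all measured genes 24.2% were higher and 22.9% lower in this comparison. Slc38a2, a transporter of small neutral amino acids, was at 170.1, 224 and 54.4 CPM in PCI34051+NEC, NEC and control, and Slc1a5, a glutamine carrier, at 23.5, 92.0 and 29.9 CPM. Slc3a2, the heavy chain of several exchangers, was the lower gene, at 341, 148 and 329 CPM. Shmt2, the mitochondrial serine hydroxymethyltransferase, was at 15.8, 54.6 and 14.8 CPM, Aldh18a1 of proline synthesis at 437, 141 and 653 CPM, and Phgdh of serine synthesis at 21.9, 19.4 and 36.7 CPM. The difference between these lists was not tested. With PCI34051 against NEC the transporters had 3 genes higher and 2 lower (median -0.25). In the same comparison 9 measured synthesis genes had 3 higher and 1 lower (0.32). The background there was 25.0% higher and 25.6% lower. Against control 3 of 7 measured transporters were higher and 0 lower (0.78), and 0 of 10 synthesis genes were 2-fold apart (-0.19). Over all genes 6.55% were higher and 6.55% lower against control.

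A last set of lists gives the setting of the 10 genes. Their counts read against 24.2% higher and 22.9% lower over all measured genes in NEC against control. The shares were 25.0% and 25.6% with PCI34051 against NEC, and 6.55% each way with PCI34051 against control. Of 13 cytosolic aminoacyl-tRNA synthetases, 3 were higher and 3 lower in NEC than in control (median 0.32), 1 higher and 1 lower with PCI34051 against NEC (-0.21), and 1 higher and 0 lower with PCI34051 against control (-0.03). Sars was at 245, 141 and 291 CPM in the PCI34051+NEC, NEC and control libraries, Vars at 166, 301 and 140.3 CPM, and Aars at 179, 141 and 192 CPM. The most abundant cytosolic relatives of BiP and Hsp90b1 were near level. Hspa8 was at 547, 644 and 617 CPM, Hsp90ab1 at 603, 537 and 641 CPM, and Hsp90aa1 at 71.0, 56.8 and 70.3 CPM. In their list of 10 heat shock genes 2 (Hspb1 and Bag3) were higher and 2 (Hspa1b and Dnajb1) lower in NEC than in control (median -0.33). Of these, Hspa1b is itself a cytosolic Hsp70 gene. With PCI34051, 0 were higher and 2 lower against NEC (-0.03), and 0 and 1 against control (-0.13). Of 9 mitochondrial chaperones and proteases, 1 was higher and 4 lower in NEC than in control (-0.32). With PCI34051, 2 were higher and 2 lower against NEC (0.34), and 0 and 1 against control (-0.20). The mitochondrial Hsp70 gene Hspa9 was at 206, 87.5 and 180.1 CPM and the protease gene Lonp1 at 66.4, 194 and 76.6 CPM. Hspd1 of the same list was at 72.0, 38.4 and 95.4 CPM.

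**Figure D4:**
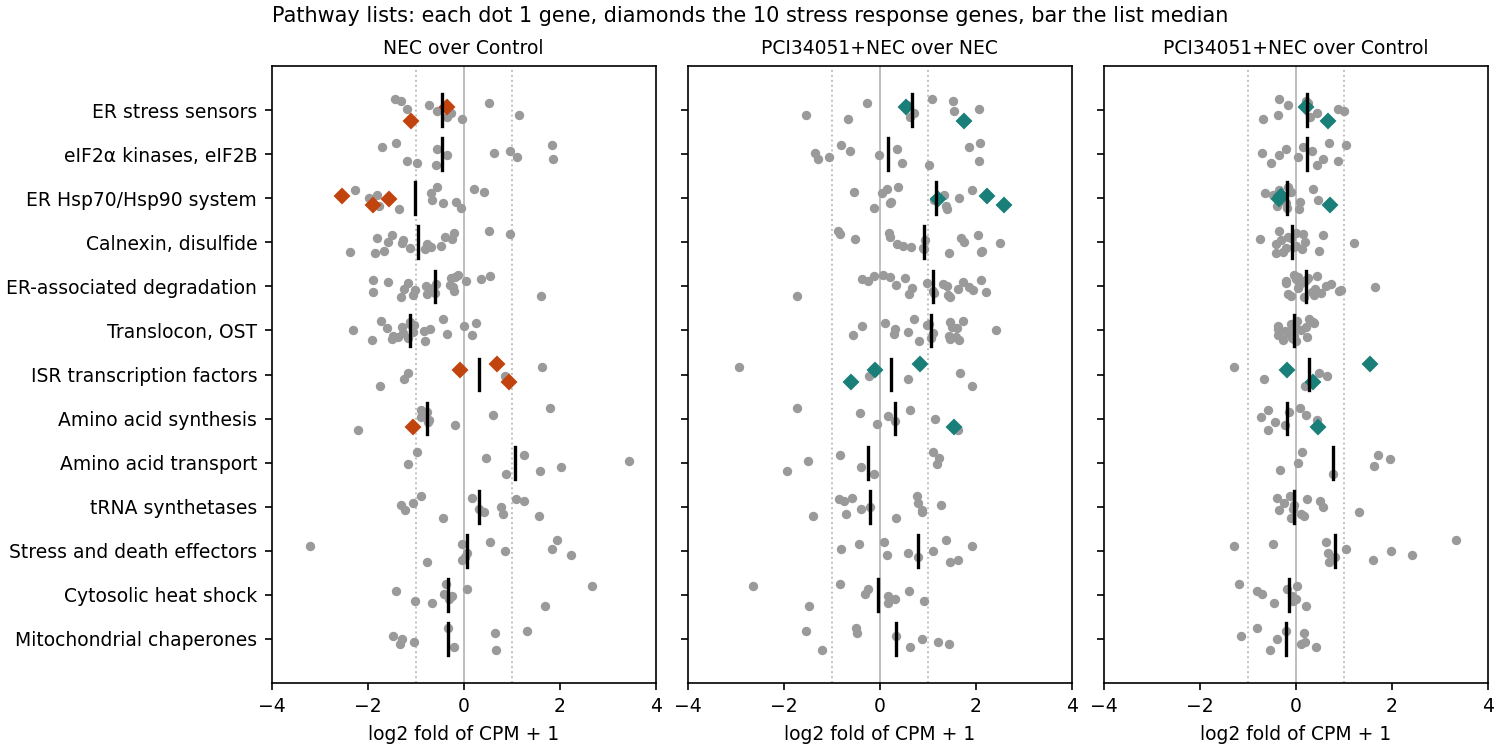
log2 fold of CPM + 1 for each measured gene of 13 pathway lists in the 3 comparisons, with diamonds for the 10 genes, a black bar at the list median and dotted lines at 2-fold. The medians of the 4 ER folding, degradation and translocon lists lie left of zero for NEC over control (-1.12 to -0.59). They lie right of zero for PCI34051+NEC over NEC (0.92 to 1.16). Single genes of these lists lie on either side.

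Genes that share the ER stress element with Hspa5 and Hsp90b1 were listed after the motif search. Of 35 such genes, 18 were measured in NEC against control, and 7 of these (38.9%) were at least 2-fold lower, beside 22.9% of all measured genes, while 4 were higher. Without Hspa5 and Hsp90b1, which prompted the list, 5 of 16 were lower and 4 higher. The 7 were Hspa5, Hsp90b1, Calr, Canx, Pdia6, Hnrnpa3 and Xlr3a. With PCI34051 against NEC 9 of 18 were higher and 3 lower, beside 25.0% and 25.6% of all genes. Without Hspa5 and Hsp90b1 these were 7 and 3 of 16. Against control 0 of 17 were 2-fold apart, where 6.55% of all genes were higher and 6.55% lower. Of 283 measured genes with an amino acid response element, as in Asns, 26.1% were higher and 23.3% lower in NEC than in control, close to the background of 24.2% and 22.9%. These are matches of letters and say nothing about binding.

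By the distance between centred log2(CPM + 1) profiles over the 3 libraries, among 10492 protein-coding genes at 10 CPM or more, 144 genes (1.37%) lay within 0.25 of Hspa5 and 534 (5.09%) within 0.25 of Asns. The nearest to Hspa5 was Sipa1l3, at 235, 49.0 and 293 CPM in PCI34051+NEC, NEC and control, followed by Tpp1, Amn, Naaladl1 and Qdpr. The nearest to Asns were Pip4p1, at 104, 34.7 and 74.0 CPM, then Pak2, Icmt, Tmem199 and Cs. With 3 libraries such likeness is a description.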

How the data were processed

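For 3 mouse intestinal libraries (150 bp paired-end), the authors deposited whole-number counts by gene symbol, on build mm10 per the submitters' processing notes. Aligner, annotation, strand setting and filters: not given in the sources used here. Genes that overlap or have close copies may share counts. The name of the PCI34051+NEC column differed from its sample's description by some letters, and it was assigned as the single inhibitor column; every PCI34051+NEC value rests on that. Positions, exon lengths and GC content came from GENCODE M21, which held 21926 of the 21983 symbols. A search of annotated transcripts found a match of at least 95% identity over 150 bp for 1 of the 10 genes, Hsp90b1 (273 bp). The match is to a gene on the opposite strand whose exons overlap those of Hsp90b1. That gene had no entry among the deposited counts.

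TMM scaling (edgeR 4.0.16, R 4.3.3) gave factors of 0.923, 1.03 and 1.05 for PCI34051+NEC, NEC and control. Log2 folds used CPM plus 1, which understates differences of low genes. Ratios use CPM without it, and their 95% intervals are exact conditional binomial ones (Clopper-Pearson). PCR reads are not independent molecules, so intervals cover counting error only. A gene was measured at 1 CPM or more in either library, and counted at a 2-fold difference. The code was tested on simulated data. The members, lists and alternatives were chosen with earlier results of these data known. So was the rule for named genes: all 10, the 3 most abundant others of each pathway list, and fixed relatives. Genes of the marker lists were named in part only. Creb3l1, Atf5, Canx, Pdia6, Hnrnpa3, Xlr3a, Epcam, Fabp2 and Lct were named after their values were seen. So were Vil1, Cdh1, Alpi, Hspb1, Bag3, Hspa1b and Dnajb1. Alternatives used DESeq2 1.42.0 size factors, total counts, other TMM sets, pseudocounts, minimums, thresholds, thinning, and correction for GC content and length in 30 bins each. Python 3.11.15, pandas 2.3.3 and scipy 1.17.1 were used.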

Additional observations from a re-analysis of the deposited data

How the results depend on the processing

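Of 300 alternative values of single genes, 298 kept their sign, and 0 genes past 2-fold reversed. On the log2 scale, 273 lay no further from the reported fold than the longer side of its counting interval. That is a looser measure than lying inside the printed interval. These totals include the settings that change only the minimum CPM. Such settings cannot alter the fold of a single gene, so their values equal the reported ones by construction. With a pseudocount of 4 CPM, and also with counting intervals wholly beyond 2-fold, 3 genes in place of 5 were lower in NEC than in control. A 1.5-fold threshold gave 2 genes higher in NEC than in control (Atf4 and Trib3), 1 lower in PCI34051+NEC than in NEC (Atf4), and 3 higher in PCI34051+NEC than in control. Scaling to total counts moved the median log2 fold to 0.96 for PCI34051+NEC over NEC and to 0.09 for PCI34051+NEC over control, where the median of all genes moved to -0.14 and -0.18. The other counts stayed within 1.5 times the reported ones. Xbp1 was not 2-fold higher in PCI34051+NEC than in NEC with total counts, a pseudocount of 4 CPM, intervals wholly beyond 2-fold or thinning, each of which left 5 genes in place of 6. With the trend with GC content and length removed, Hsp90b1 (0.80) fell below 2-fold for PCI34051+NEC over NEC and Trib3 (1.22) passed it, and Asns (-0.87) fell below it for NEC over control. The cause was not tested. Asns in NEC rested on 83 counts, the fewest of the 10 genes. No paired analysis was possible because each group has 1 library. No library could be left out for the same reason.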
